A study of Mus musculus with 74 samples.

Results

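Hox genes encode homeodomain transcription factors that give cells of the embryo their position along the body axis. The genes lie in 4 clusters, and members with the same number in different clusters (paralogs) derive from 1 ancestral gene. Genes of low number sit at the 3′ end of a cluster and are expressed from the hindbrain backward, those of high number start further back in the trunk, limbs and tail, and the forebrain and midbrain express none. Retinoic acid and Cdx factors induce the genes, while Polycomb proteins keep them silent. The members described here are all genes of both expression tables whose name is Hoxa, Hoxb, Hoxc or Hoxd followed by a number. There were 37 of them among 21241 genes in the table of the NSC-medium experiment and 35 among 20558 in the table of the parallel experiment, which lacks Hoxa6 and Hoxb13. The filter on low values (at least 10 in at least 2 libraries) kept all 37 of the first and 34 of the other, where Hoxd1 did not pass. Hoxb1 and Hoxc12 were not analysed here.

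By cluster, 11 members are Hoxa genes (chromosome 6 of GRCm38), 9 are Hoxb genes (chromosome 11, from position 96194316 to 96354012), 8 are Hoxc genes (chromosome 15, 102921103 to 103036852) and 9 are Hoxd genes (chromosome 2, 74668310 to 74765142). By position, 11 belong to paralog groups 1 to 4, 11 to groups 5 to 8 and 15 to groups 9 to 13. In the annotation, 14 of the 37 overlap a gene on the opposite strand, such as Hoxb3os at Hoxb2 and Hoxb3 or Hoxb5os at Hoxb5 and Hoxb6, and 15 overlap a gene on their own strand, such as Hoxd3 with Hoxd4 and Hoxc5 with Hoxc6. The sources used here do not state whether the counting used strand, so reads of such partners cannot be told apart.

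The study induced mouse embryonic fibroblasts (MEFs) to become induced neural stem cells (iNSCs) with lentiviral transcription factors switched on by doxycycline (Dox), and RNA was sequenced from the bulk cultures. MEFs at passage 1, primary neural stem cells (NSCs) at passage 15 and both induced lines at passage 15 carry a Sox2-GFP reporter. iNSC_KF was made with Klf4 and eSox17FNV, an engineered Sox17, and iNSC_BKMF with Brn4, Klf4, c-Myc and eSox17FNV. The labels list both lines as intermediates, and their markers are given below. In the NSC-medium experiment Sox2-GFP MEFs received Brn4, Klf4 and c-Myc with eSox17FNV (BKM_FNV), Sox17 (BKM_Sox17) or Sox2 (BKM_Sox2), or Klf4 with eSox17FNV alone (K_FNV). They were kept on Dox for 18 days and sampled on days 4, 8, 12, 18, 24 and 30. In the parallel experiment MEFs carrying Nanog-CreER, Rosa26-tdTomato and Sox2-GFP received Klf4, c-Myc and eSox17FNV. They were grown in N2B27 medium with Dox to day 8 and then split into NSC medium or LIF/2i medium, which favours pluripotent cells, with Dox until day 16 and sampling on days 4, 8, 12, 16, 20 and 24. Each group has 2 libraries, except BKM_Sox17 day 30 and BKM_Sox2 day 30 with 1. The labels do not say whether replicates came from separate cultures, so p-values measure the spread between these libraries, which may be technical.

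Values are the authors' normalized tag counts, and the values of replicates 1 and 2 are given in that order. All columns of a table follow nearly the same distribution, so read depth is unknown. Replicates correlated at 0.9495 to 0.9608 in the NSC-medium table and 0.9366 to 0.9546 in the parallel table on the log2 scale. BKM_Sox2 day 24 replicate 1 correlated at 0.0578 with its replicate and was left out. It is called the doubted library below, and results that change when it enters the fit are given with it. Differences are log2 differences of the value plus 2, with the standard error (SE) from limma. A member rose or fell, or is called higher or lower, where the adjusted p was below 0.05 and the difference at least 1. The lists of other genes named below come from general knowledge. In bulk samples, fewer cells of a type and less RNA per cell cannot be told apart.

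The annotated starts of 4 genes that rose together late in BKM_FNV (described further on) are shown with the bases before them, to give the sequence context of the main result. The RefSeq promoter table of GRCm38.p6 holds 23 entries for 21 of the members, and it has none for Hoxb3 and Hoxb9. In capitals is AGGTCA on either strand, the half-site that retinoic acid receptors and other nuclear receptors bind.
Hoxd3 (chr2:74711743-74711926, + strand): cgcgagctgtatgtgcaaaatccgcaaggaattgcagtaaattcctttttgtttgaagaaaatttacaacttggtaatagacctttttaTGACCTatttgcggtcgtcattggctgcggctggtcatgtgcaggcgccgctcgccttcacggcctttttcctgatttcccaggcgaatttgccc
Hoxd4 (chr2:74721728-74721977, + strand): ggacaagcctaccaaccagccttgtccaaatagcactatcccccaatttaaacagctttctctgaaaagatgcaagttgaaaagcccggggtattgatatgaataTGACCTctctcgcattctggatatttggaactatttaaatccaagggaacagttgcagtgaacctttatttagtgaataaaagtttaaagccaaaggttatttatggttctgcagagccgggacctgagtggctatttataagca
Hoxb4 (chr11:96318017-96318266, + strand): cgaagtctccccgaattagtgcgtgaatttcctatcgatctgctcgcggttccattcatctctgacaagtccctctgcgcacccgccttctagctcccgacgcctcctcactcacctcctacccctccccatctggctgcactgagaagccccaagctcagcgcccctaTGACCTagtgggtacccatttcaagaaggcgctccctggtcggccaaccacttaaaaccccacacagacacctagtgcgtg
Hoxb8 (chr11:96281655-96281904, + strand): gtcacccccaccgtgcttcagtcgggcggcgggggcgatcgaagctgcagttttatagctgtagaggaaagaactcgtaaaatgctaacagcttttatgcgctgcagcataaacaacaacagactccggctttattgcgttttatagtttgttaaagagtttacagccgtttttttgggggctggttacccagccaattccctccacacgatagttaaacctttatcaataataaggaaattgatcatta
Hoxd3, Hoxd4 and Hoxb4 each hold 1 match, and Hoxb8 holds none. The Hoxd3 sequence stops after 184 bases, at the first annotated exon, and the others run the full 250 bases. The starts used are those of RefSeq. In the GENCODE annotation Hoxd4 begins at 74711929, next to Hoxd3 at 74711927, so the stretch printed for Hoxd4 lies inside that gene. Within the 250 bases before the start, the half-site was found for 6 of the 21 members (28.6%; also Hoxc4, Hoxd8 and Hoxd10), against 14% of all 32851 promoters in the table. The other motifs searched, on both strands, were TTTATG, bound by Cdx proteins, TGATNNAT, bound by Hox with Pbx proteins, and ACAATG, bound by Sox proteins. TTTATG was found for 5 members (23.8%, against 10.8% of all promoters), among them Hoxd3, Hoxd4 and Hoxb8. TGATNNAT was found for 3 (14.3%, against 7.7%) and ACAATG for none (against 10.7%). The shares of members count genes, some with more than 1 entry, and those of all promoters count entries, so their units differ. None of these motifs contains another, and they were chosen with the results known. A match describes the letters and is not evidence of binding.

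The first comparison was of NSCs with MEFs, the cells aimed at and the cells started from. MEFs expressed all 4 clusters, with 35 of 37 members at 10 or more in both libraries. In NSCs 8 members reached that level, all of them Hoxa genes, and 25 members were listed at 0 in both libraries. In the test 31 members were lower and 2 higher in NSCs, where 16.7% of all genes tested were lower and 17.7% higher, 34.4% in all. All 9 Hoxb, all 8 Hoxc and all 9 Hoxd members were lower, and so were all 15 members of groups 9 to 13.

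Hoxb9, a gene of the thoracic axis, was at 860 and 874 in MEFs and listed at 0 in both NSC libraries (adjusted p = 7.37e-24). Hoxc6 was at 714 and 662 in MEFs, Hoxc8 at 513 and 506, Hoxd13, a gene of the distal limb, at 293 and 290, Hoxc10 at 288 and 266, and Hoxc5 at 240 and 248, and all were listed at 0 in both NSC libraries (adjusted p between 6.19e-26 and 1.54e-12). In these genes the libraries of both cell types did not overlap. With 2 libraries per group, that held for 36 of 37 members and 74.3% of all genes. Hoxb3, which acts in the hindbrain, was at 139 and 203 in MEFs and at 18 and 4 in NSCs (log2 -3.96 ± 0.40, adjusted p = 9.85e-10).

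The anterior end of the Hoxa cluster did not share that loss. Hoxa3 was at 115 and 81 in MEFs and at 302 and 317 in NSCs (log2 1.66 ± 0.29, adjusted p = 1.68e-05). Hoxa4 was at 20 and 30 in MEFs and at 63 and 60 in NSCs (log2 1.26 ± 0.30, adjusted p = 0.000653). Hoxa2, Hoxa5 and Hoxa7 were not called. Hoxa6, which lies between Hoxa5 and Hoxa7 and did not exceed 30 in any library, was lower, so the calls did not change at a single point. From Hoxa9 to Hoxa13 all 4 members present were lower, with Hoxa10 still at 82 and 93 in NSCs and Hoxa11 and Hoxa13 listed at 0. Fibroblast markers were lower in 10 of 10 cases, macrophage markers in 6 of 6, and neural stem cell markers higher in 10 of 10. Their part in the Hox result was not tested.

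Among the other genes of the pathway, 9 of 16 Polycomb genes were higher and 1 lower in NSCs. Jarid2, a subunit that aids recruitment of the complex, averaged 1389.5 against 180.5 (log2 2.93 ± 0.22), and Pcgf2 was the one that was lower (log2 -2.31 ± 0.25). Of 9 Hox cofactors, which bind DNA together with Hox proteins, Pbx4 and Pknox2 were higher and none was lower. Of 12 posterior and retinoid regulators 7 were lower and 2 higher. Crabp1, which binds retinoic acid in the cytoplasm, averaged 4740.5 in MEFs and Aldh1a2, which makes retinoic acid, 90.5, and both were listed at 0 in NSCs. The receptor gene Rarg was lower (log2 -4.15 ± 0.14), and the 2 that were higher were Rarb and T. Of 13 head patterning genes 5 were higher and 2 lower, with Six3, a forebrain regulator, at 967 against 1 on average.

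**Figure D1:**
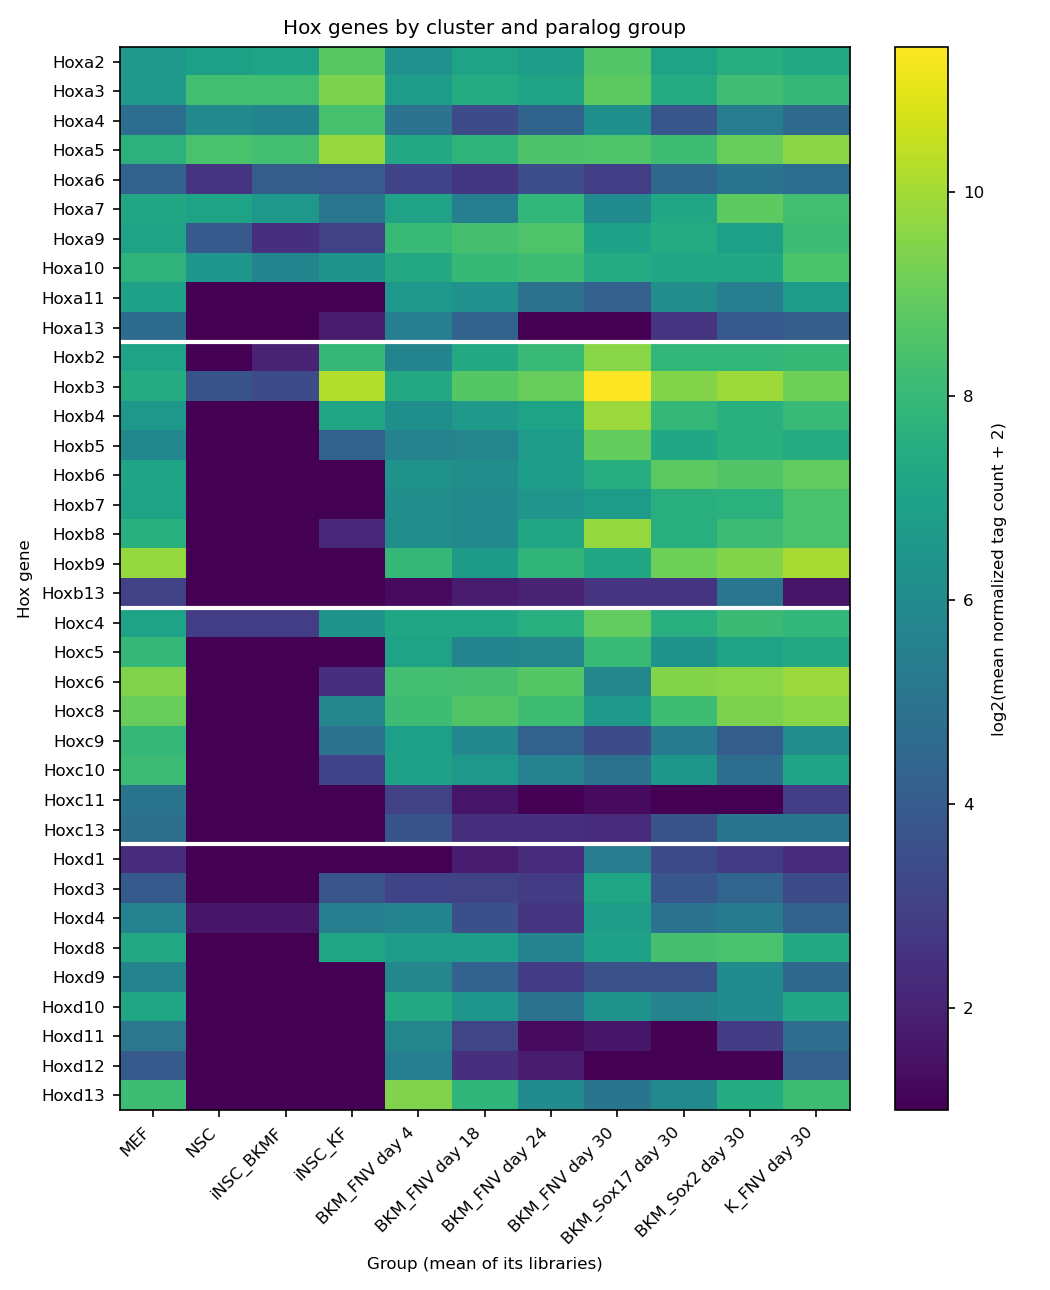
Mean value of Hox genes (rows, by cluster and paralog group) in 11 groups of the NSC-medium table (columns), coloured by log2 of the mean normalized tag count plus 2. Colours can be compared along a row, not between rows, whose genes differ in length. Along their rows, NSC and iNSC_BKMF are dark in Hoxb, Hoxc and Hoxd genes and in Hoxa11 and Hoxa13, and less so in most other Hoxa genes. iNSC_KF adds genes of the other clusters, and BKM_FNV day 30 has the brightest Hoxb2 to Hoxb5.

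The next question was whether the induced lines had the Hox pattern of NSCs. In iNSC_BKMF 8 members were at 10 or more in both libraries and 24 were listed at 0, and the summed Hox value was 1076 to 1201, beside 1226 to 1246 in NSCs. Against NSCs 1 member was called higher and 1 lower (1.02% and 1.00% of all genes, 2.02% in all). Hoxa6 was at 16 and 14 in iNSC_BKMF and at 8 and 0 in NSCs (log2 1.92 ± 0.46, adjusted p = 0.0122), and Hoxa9 at 0 and 7 against 15 and 11 (log2 -1.81 ± 0.43, adjusted p = 0.0111). Both are low values. Neither was called with the compared groups alone (adjusted p = 0.537 and 0.539) or with the doubted library (adjusted p = 0.0866 and 0.262). Each call was also lost in some, not all, of the fits that leave out 1 library. The difference for Hoxa6 was 0.76 without NSC replicate 2, and its call was also lost without either iNSC_BKMF library (adjusted p = 0.077 and 0.0588). That for Hoxa9 was -0.72 without iNSC_BKMF replicate 1, and its call was also lost without NSC replicate 1 (adjusted p = 0.159). Hoxb3 was at 10 and 7 (log2 -0.08 ± 0.40, adjusted p = 1), and Hoxb9 was listed at 0 in all libraries of both groups. Against MEFs 30 members were lower and Hoxa3 was higher in iNSC_BKMF (17.9% and 18.9% of all genes, 36.8% in all).

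The line iNSC_KF was different. Against NSCs, 17 members were higher and 1 lower (4.79% and 4.09% of all genes, 8.88% in all). The higher members lay toward the anterior end: 9 of 11 of groups 1 to 4, 6 of 11 of groups 5 to 8 and 2 of 15 of groups 9 to 13. They came from all 4 clusters, with 5 Hoxa, 5 Hoxb, 4 Hoxc and 3 Hoxd genes. With the compared groups alone 11 members were called.

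Hoxb3 was at 1117 and 1264 in iNSC_KF and at 18 and 4 in NSCs (log2 6.76 ± 0.40, adjusted p = 1.78e-13, but 0.0843 with the compared groups alone). Hoxb2, its neighbour and a gene of hindbrain segments, was at 214 and 271 and Hoxb4 at 115 and 166, where both NSC libraries list both genes at 0 (adjusted p = 8.97e-16 and 2.25e-14). Hoxd8 was at 146 and 127 and Hoxc8 at 55 and 53, again against 0 in NSCs (adjusted p = 1.66e-15 and 1.45e-19). In each of these genes the iNSC_KF libraries lay above both NSC libraries. No overlap, in either direction, was seen for 19 of 37 members and 46.2% of all genes.

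Hoxc4 was at 78 and 88 against 0 and 11 (log2 4.06 ± 0.55, adjusted p = 1.78e-06, but 0.248 with the compared groups alone). The anterior Hoxa genes that NSCs already express were higher still: Hoxa4 was at 281 and 375 (log2 2.36 ± 0.30), Hoxa2, the selector gene of the second branchial arch, at 465 and 387 (log2 1.80 ± 0.25), and Hoxa5 at 879 and 899 (log2 1.37 ± 0.24). Hoxa7 was the member that was lower, at 34 and 31 against 135 and 126 (log2 -1.94 ± 0.23, adjusted p = 1.99e-07). Hoxb9 was listed at 0 in both lines and in NSCs.

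Between the lines themselves 16 members were higher and 1, Hoxa7, lower in iNSC_KF (5.54% and 5.07% of all genes, 10.6% in all), and 11 were called with the compared groups alone. Hoxb3 differed by 6.84 ± 0.40 on the log2 scale (adjusted p = 1.27e-13) and Hoxb2 by 6.13 ± 0.32 (adjusted p = 1.58e-14, but 0.0625 with the compared groups alone). Both comparisons share the iNSC_KF libraries.

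Relative to MEFs, iNSC_KF had 24 members lower and 5 higher (15.9% and 16.7% of all genes, 32.6% in all). All 15 members of groups 9 to 13 were lower, and 4 of 11 of groups 1 to 4 were higher. The 5 that were higher were Hoxa4 (log2 3.62 ± 0.30), Hoxb3 (2.81 ± 0.40), Hoxa3 (2.79 ± 0.29), Hoxa2 (2.14 ± 0.25) and Hoxa5 (2.11 ± 0.24). Hoxb9, Hoxd13 and Hoxc5 were listed at 0, and Hoxc6 was at 7 and 0 against 714 and 662.

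Both lines had all 10 neural stem cell markers at 10 or more in every library. Their summed value was 117750 to 124528 in iNSC_KF, 159991 to 161201 in iNSC_BKMF and 163497 to 163619 in NSCs, and 3 of the 10 were lower in iNSC_KF than in NSCs. Summed fibroblast markers were 551 to 708, 615 to 806 and 401 to 601, beside 199454 to 201993 in MEFs, and Pdgfrb and Twist2 were listed at 0 in both lines and in NSCs. Between iNSC_KF and NSCs no Hox cofactor and no gene of the clusters' neighbours and noncoding RNAs was called, and 1 of 16 Polycomb genes, Pcgf2, was higher. The 2 of 12 posterior and retinoid regulators that were higher were Gbx2, a gene of the anterior hindbrain (64 against 14.5 on average, log2 1.98 ± 0.62), and Cyp26b1, which degrades retinoic acid (log2 1.36 ± 0.28). Of 13 head patterning genes 3 were lower, among them Six3 (log2 -2.49 ± 0.26), and 1 was higher.

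The cocktails were then followed over time. After 4 days of Dox, the 4 cocktails together differed from MEFs in 11 members, 9 lower and 2 higher (8.33% and 9.79% of all genes, 18.1% in all). Rescaling the columns moved the median over all genes from -0.02 to 0.11 in this comparison, and all 4 clusters must be read with that shift. Hoxb9 was at 239 to 440 in the 8 day 4 libraries, all below the 860 and 874 of MEFs (log2 -1.55 ± 0.17, adjusted p = 7.74e-09). Of 37 members 17 had no overlap between the day 4 and MEF libraries, as had 39.1% of all genes. Hoxc11, a posterior gene, was at 2 to 9 against 37 and 23 (log2 -2.29 ± 0.50, adjusted p = 0.000326). Hoxb8 (log2 -1.48 ± 0.26), Hoxb2 (log2 -1.32 ± 0.26) and Hoxb13, at 0 or 1 against 3 and 9 (log2 -1.74 ± 0.30), were also lower. Hoxb13 passed the filter on low values only through BKM_Sox2 libraries after Dox.

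The 2 members that were higher were Hoxd12 and Hoxd13, while 5 of the 15 members of groups 9 to 13 were lower. Hoxd13 was at 465 to 771 in the day 4 libraries, all above the 293 and 290 of MEFs (log2 1.06 ± 0.26, adjusted p = 0.0013), and its neighbour Hoxd12 at 24 to 55 against 16 and 11 (log2 1.32 ± 0.29, adjusted p = 0.000288). Hoxb3 was not called (log2 -0.10 ± 0.31, adjusted p = 0.823). With the doubted library in the fit 4 members were called, and Hoxb9, Hoxb8 and Hoxb13 were not (adjusted p = 0.427, 0.165 and 0.116). Fibroblast markers were lower in 6 of 10 cases and macrophage markers in 5 of 6, and epithelial markers were higher in 5 of 6. Their part in the Hox result was not tested.

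From day 4 to day 18 on Dox, 5 of 9 Hoxd genes fell in BKM_FNV and Hoxb2 and Hoxb3 rose. Of 37 members 9 fell and 2 rose (11.5% and 11.4% of all genes, 22.9% in all), and 5 of those that fell are of groups 9 to 13. Hoxd12 went from 41 and 45 to 5 and 2 (log2 -3.09 ± 0.36, adjusted p = 3.49e-08), Hoxd11 from 47 and 58 to 12 and 2 (log2 -2.86 ± 0.59, adjusted p = 0.000194) and Hoxd13 from 645 and 739 to 248 and 204 (log2 -1.61 ± 0.33, adjusted p = 0.000193). Hoxd4 (log2 -2.22 ± 0.33), Hoxa4 (-1.58 ± 0.30) and Hoxa7 (-1.51 ± 0.23) fell too. Hoxb9 fell from 251 and 239 to 106 and 92 (log2 -1.29 ± 0.21, adjusted p = 6.74e-06). Over the same days 5 of 6 epithelial markers rose, from a sum of 4340 to 4957 to one of 13531 to 20893. Pluripotency markers rose in 6 of 7 cases, from 120 to 128 to 1399 to 2803, and fibroblast markers rose in 6 of 10 and fell in 1. Their part in the Hox result was not tested.

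Hoxb2 rose from 39 and 61 to 157 and 164 (log2 1.68 ± 0.32, adjusted p = 7.54e-05) and Hoxb3 from 172 and 143 to 332 and 477 (log2 1.33 ± 0.40, adjusted p = 0.0064). The Hoxb3 call was lost without day 18 replicate 2 (adjusted p = 0.0834) and without day 4 replicate 2 (adjusted p = 0.0546). With the doubted library 5 members were called, and Hoxb3, Hoxb9 and Hoxd13 were not (adjusted p = 0.619, 0.753 and 0.393). With the compared groups alone Hoxd11 was not (adjusted p = 0.0907).

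The other 3 cocktails had their own courses over the same days, on other libraries. In BKM_Sox17 6 members fell and 4 rose (9.67% and 9.37% of all genes, 19.0% in all). Hoxd12 fell from 45 and 55 to 9 and 10 (log2 -2.17 ± 0.36) and Hoxc13 from 9 and 9 to 0 and 1 (log2 -2.17 ± 0.54), while Hoxb3 rose from 103 and 95 to 494 and 399 (log2 2.14 ± 0.40, adjusted p = 5.46e-05). Hoxb9 fell by 1.12 ± 0.21 on the log2 scale. With the doubted library 5 members were called, and Hoxb3, Hoxb9 and Hoxc13 were not (adjusted p = 0.273, 0.905 and 0.0746). Hoxb9 was not called with the compared groups alone (adjusted p = 0.0942), and its difference was -0.79 without day 18 replicate 1.

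In BKM_Sox2 7 members fell and 3 rose (8.01% and 8.95% of all genes, 17.0% in all). Hoxc9 fell from 91 and 102 to 12 and 25 (log2 -2.34 ± 0.54, adjusted p = 0.000827), and Hoxb9 from 266 and 246 to 152 and 85 (log2 -1.16 ± 0.21, adjusted p = 4.67e-05). Hoxb3 was at 116 and 96 on day 4 and at 148 and 269 on day 18 and was not called (log2 0.91 ± 0.40, adjusted p = 0.069), though it was called after rescaling (adjusted p = 0.0426). With the compared groups alone 2 members were called and Hoxc9 was not (adjusted p = 0.0657). The doubted library in the fit left 4. Hoxb9 was not called in either fit (adjusted p = 0.141 and 0.921), and its difference was -0.74 without day 18 replicate 2. Hoxb3 was called without day 18 replicate 1 (adjusted p = 0.0267).

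K_FNV had the fewest members called, 2 higher and 1 lower, which is 8.11% of the members. It also had the smallest share of all genes called (5.40% higher and 4.97% lower, 10.4% in all). Hoxd8 rose from 86 and 132 to 316 and 366 (log2 1.66 ± 0.29, adjusted p = 6.7e-05), Hoxd1 from 1 and 0 to 10 and 12 (log2 2.40 ± 0.38), and Hoxc5 fell from 356 and 359 to 209 and 89 (log2 -1.38 ± 0.37). Neither Hoxb3 (383 and 341 to 440 and 271, adjusted p = 0.992) nor Hoxb9 (430 and 440 to 545 and 463, adjusted p = 0.543) was called. Hoxd8 and Hoxc5 were not called with the compared groups alone (adjusted p = 0.0738 and 0.227) or with the doubted library. Whether the courses differ between cocktails was not tested over days 4 to 18. Epithelial markers rose in 3 of 6 cases in BKM_Sox17, rose in 1 and fell in 1 in BKM_Sox2, and rose in 3 and fell in 2 in K_FNV. Pluripotency markers rose in 3 of 7 cases in BKM_Sox17 and 6 of 7 in K_FNV, and rose in 1 and fell in 1 in BKM_Sox2. Fibroblast markers rose in 6, 5 and 4 of 10 cases, and the part of these markers in the Hox results was not tested.

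**Figure D2:**
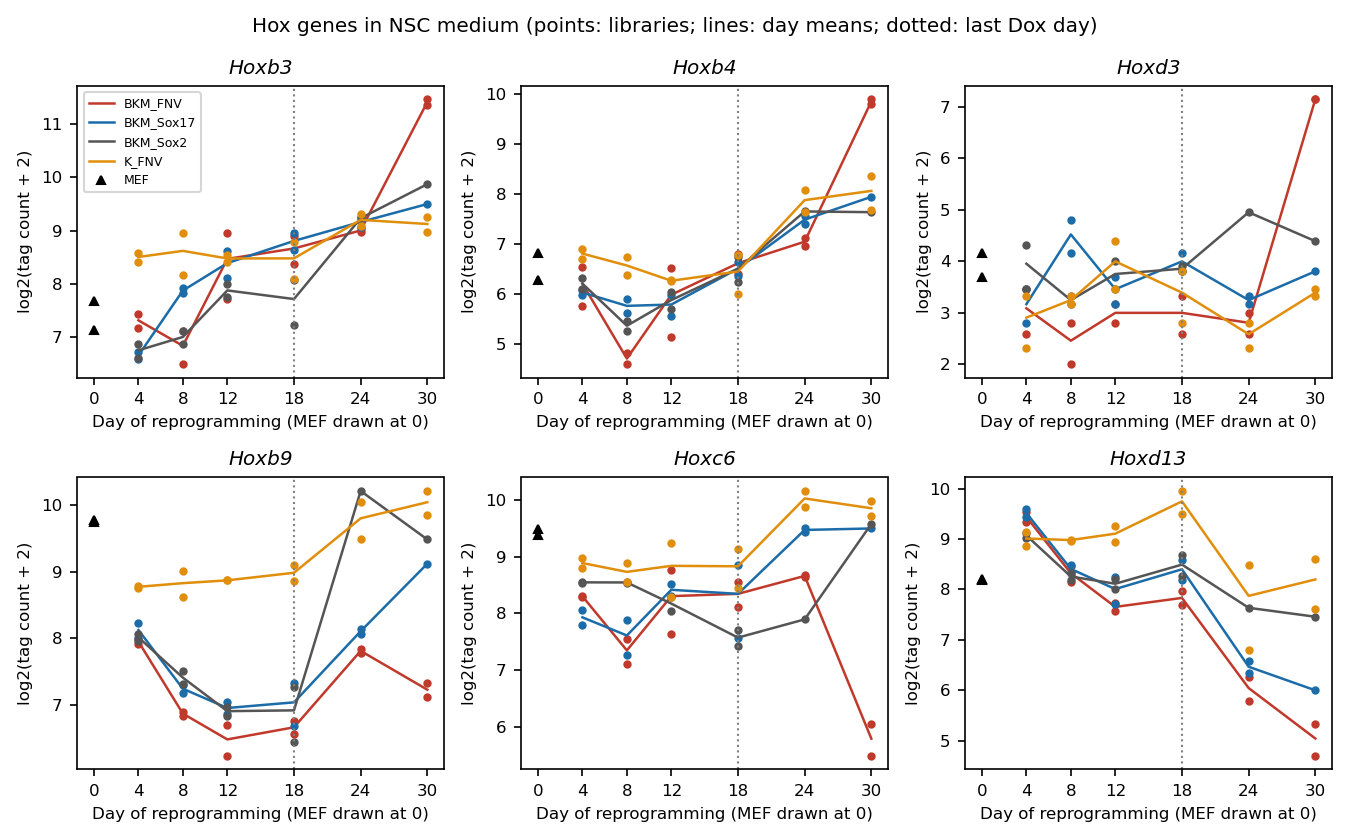
Log2 of the normalized tag count plus 2 (y axis) of 6 Hox genes by day of reprogramming (x axis) in the 4 cocktails in NSC medium. Points are libraries, lines join day means, triangles are MEFs drawn at day 0 and the dotted line marks the last day on Dox. K_FNV holds Hoxb9 between 390 and 545 on Dox, above the cocktails with Brn4 and c-Myc, and BKM_FNV day 30 stands apart in Hoxb3, Hoxb4, Hoxd3 and Hoxc6.

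BKM_FNV was compared at matched days on Dox with BKM_Sox17 and with BKM_Sox2, which were not compared with each other. Between BKM_FNV and BKM_Sox17, and between BKM_FNV and BKM_Sox2, limma called 0 of 37 members (3.72% of all genes, 2.29% higher and 1.43% lower, and 6.18%, 3.37% higher and 2.81% lower), with 15 and 12 at an unadjusted p below 0.05. Hoxb9 was lower in BKM_FNV by 0.34 ± 0.10 and 0.31 ± 0.10 on the log2 scale (adjusted p = 0.0163 and 0.0228), short of the threshold for the difference. Hoxb3 differed by -0.15 ± 0.20 and 0.46 ± 0.20 (adjusted p = 0.639 and 0.0805).

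K_FNV lacks Brn4 and c-Myc and had higher values of several posterior Hox genes than BKM_FNV on Dox. Of 37 members 10 were higher and 0 lower (7.50% and 6.97% of all genes, 14.5% in all), 5 of them of groups 9 to 13 and 4 of groups 5 to 8. Hoxb9 was at 390 to 545 in the 8 K_FNV libraries (median 464) and at 73 to 251 in the 8 BKM_FNV libraries (median 109) (log2 1.88 ± 0.10, adjusted p = 9.29e-15). Hoxd11 (log2 1.87 ± 0.30), Hoxc5 (1.73 ± 0.19), Hoxd12 (1.52 ± 0.18), Hoxb6 (1.45 ± 0.17) and Hoxd8 (1.37 ± 0.15) were higher as well. Within every day the Hoxb9, Hoxc5 and Hoxb6 libraries of K_FNV lay above those of BKM_FNV. On day 4 the order was reversed for Hoxd11, at 31 and 29 in K_FNV and at 47 and 58 in BKM_FNV. The same held for Hoxd12, at 24 and 31 in K_FNV and at 41 and 45 in BKM_FNV. On the later days on Dox every K_FNV library lay above those of BKM_FNV in both genes. The Hoxd8 libraries overlapped on day 4 only. With the doubted library Hoxd8 was not called (adjusted p = 0.0767). Hoxb3 was higher by 0.72 ± 0.20 (adjusted p = 0.00275), under the threshold for the difference. All 6 epithelial markers were lower and 3 of 10 fibroblast markers higher in K_FNV, and their part was not tested.

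After Dox withdrawal the same pair, at days 24 and 30, differed in 22 members, 18 higher and 4 lower in K_FNV (10.9% and 10.8% of all genes, 21.7% in all). The calls followed position in the cluster: 11 of 15 members of groups 9 to 13 and 7 of 11 of groups 5 to 8 were higher, and none of groups 1 to 4 was. The median difference was 0.78 over the Hox genes, 1.64 over groups 9 to 13 and -0.67 over groups 1 to 4, beside 0.08 over all genes. Hoxb9 was at 720 and 1061 on day 24 and 1188 and 920 on day 30 in K_FNV, and at 218 and 226, then 158 and 137, in BKM_FNV (log2 2.39 ± 0.15, adjusted p = 7.31e-14, but 0.0567 with the doubted library).

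Hoxc6 was at 1142 and 937, then 1004 and 840, in K_FNV, against 399 and 406, then 64 and 43, in BKM_FNV (log2 2.72 ± 0.32, adjusted p = 2.27e-08). The libraries of the 2 days overlapped in K_FNV and did not in BKM_FNV. Between these BKM_FNV days 73.7% of all genes had no overlap. Hoxd11 was at 7 and 26, then 12 and 37, against 1 and 0, then 2 and 0 (log2 2.87 ± 0.42), and Hoxd12 at 12 and 27, then 10 and 23, against 2 and 1, then 0 and 0 (log2 2.83 ± 0.26). Hoxa13, a gene of the most distal limb and the hindgut, was at 2 to 18 in K_FNV and listed at 0 in all 4 BKM_FNV libraries. Hoxc8 was higher by 2.38 ± 0.11 on the log2 scale.

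Of the 4 members lower in K_FNV, 3 are of groups 1 to 4: Hoxd1 (log2 -2.17 ± 0.27), Hoxd3 (log2 -1.99 ± 0.29) and Hoxb3 (log2 -1.05 ± 0.28, adjusted p = 0.00224). These differences average days 24 and 30. On day 24 Hoxb3 was higher in K_FNV (541 to 635 against 499 to 525) and Hoxd3 overlapped (3 to 5 against 4 to 6). On day 30 Hoxb3 was at 505 to 609 against 2635 to 2833, and Hoxd3 at 8 to 9 against 140 and 140. Hoxd1 was lower in K_FNV on both days, at 0 against 2 to 4, then at 3 against 33 to 47. The Hoxb3 call was lost without K_FNV day 24 replicate 1 (log2 -0.99), without K_FNV day 30 replicate 2 (log2 -0.98) and with the doubted library (adjusted p = 0.455). The 4th is Hoxb13, at 2 or less against 2 to 4, which are values near the floor. The marker calls average days 24 and 30 as well. The epithelial marker Krt8 averaged 5007 on day 24 and 18.5 on day 30 in BKM_FNV, beside 207.75 over both days in K_FNV. Neural stem cell markers were lower in 9 of 10 cases, pluripotency markers in 6 of 7 and epithelial markers in 6 of 6 in K_FNV. Their part in the Hox result was not tested. Polycomb genes were lower in 5 of 16 cases and higher in none, with Cbx2, a reader of the Polycomb mark, at 70.5 against 646 on average (log2 -3.20 ± 0.15) and Ezh2 lower by 2.13 ± 0.06. Of 9 Hox cofactors Pknox2, Pbx2 and Meis2 were lower.

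**Figure D3:**
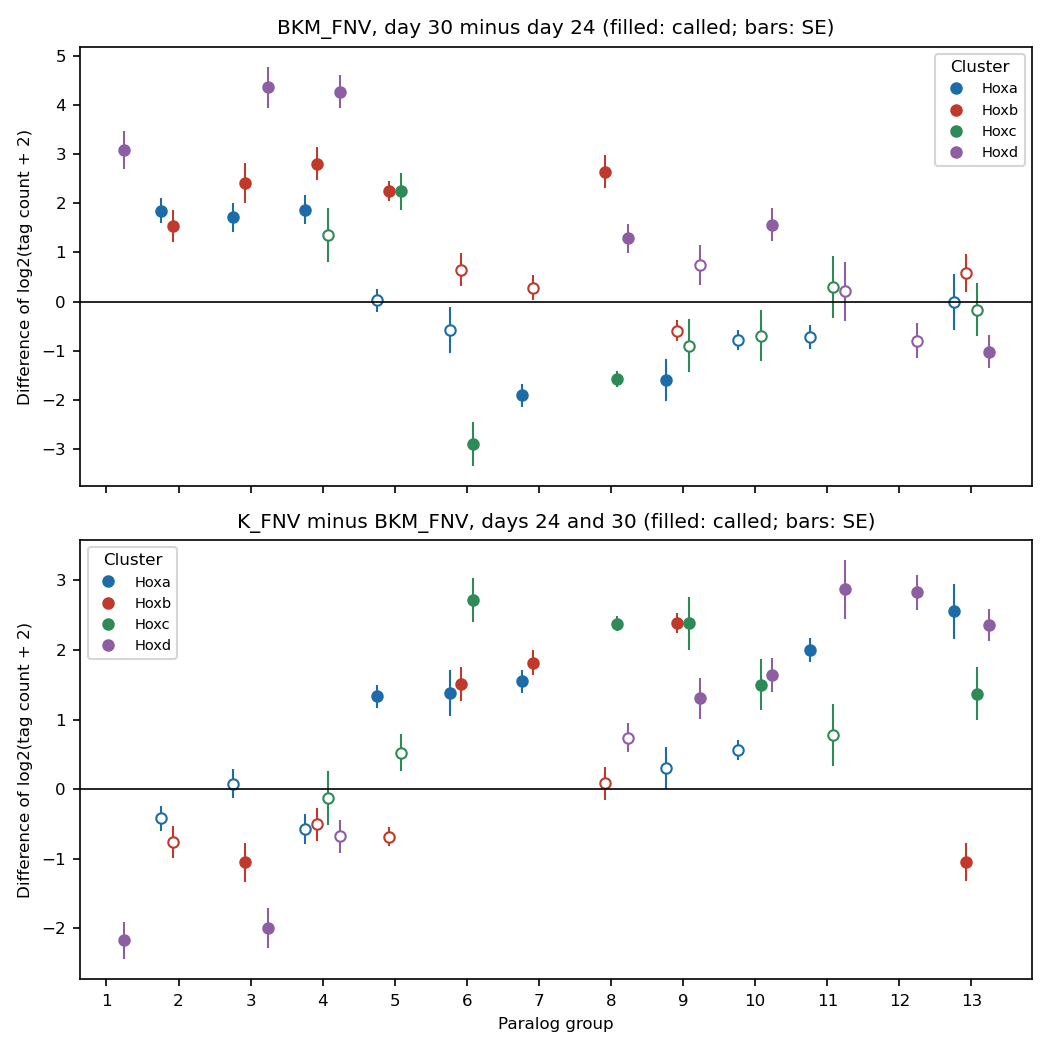
Difference in log2 of the normalized tag count plus 2 (y axis, bars show the SE) for Hox genes by paralog group (x axis), coloured by cluster, with filled points for called genes. Above, BKM_FNV day 30 against day 24, where groups 1 to 5 hold most of the genes that rose; below, K_FNV against BKM_FNV after Dox, where called genes of groups 5 to 13 are higher in K_FNV except Hoxb13. Both panels use the BKM_FNV libraries of days 24 and 30.

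BKM_FNV itself also changed after Dox, from day 24 to day 30. Of 37 members 14 rose and 5 fell (6.89% and 7.89% of all genes, 14.8% in all), and the genes that rose lay at the anterior end: 9 of 11 of groups 1 to 4, 4 of 11 of groups 5 to 8 and 1 of 15 of groups 9 to 13. The median difference was 1.87 over groups 1 to 4, 0.29 over all Hox genes and 0.08 over all genes. Hoxd3, Hoxd4, Hoxb4 and Hoxb8, whose upstream sequences are printed above, were among them.

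Hoxd3, whose product patterns the upper neck vertebrae, was at 4 and 6 on day 24 and at 140 and 140 on day 30 (log2 4.36 ± 0.41, adjusted p = 2.14e-09). Hoxd4 was at 2 and 6, then 92 and 124 (log2 4.27 ± 0.33, adjusted p = 5.02e-11), and Hoxd1 at 4 and 2, then 33 and 47 (log2 3.08 ± 0.38, adjusted p = 2.39e-07). Hoxd3 and Hoxd4 overlap on the same strand, so their reads may not be separate. In the other libraries of the NSC-medium table Hoxd3 did not exceed 29.

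In the Hoxb cluster, Hoxb4 went from 122 and 137 to 889 and 946 (log2 2.81 ± 0.33, adjusted p = 9.21e-08), Hoxb8 from 132 and 142 to 812 and 922 (log2 2.64 ± 0.33, adjusted p = 3.53e-07) and Hoxb5 from 119 and 89 to 468 and 523 (log2 2.24 ± 0.20, adjusted p = 6.63e-10). Hoxb3 went from 525 and 499 to 2635 and 2833 (log2 2.41 ± 0.40, adjusted p = 1.77e-05, but 0.214 with the doubted library). Between them, Hoxb6 (110 and 116, then 167 and 191) and Hoxb7 (91 and 80, then 125 and 87) were not called. The rise therefore did not cover every gene from Hoxb2 to Hoxb8.

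Hoxc6 fell from 399 and 406 to 64 and 43 (log2 -2.89 ± 0.45, adjusted p = 7.27e-06), Hoxa7 from 242 and 236 to 62 and 63 (log2 -1.90 ± 0.23), Hoxa9 from 403 and 343 to 120 and 125 (log2 -1.59 ± 0.43) and Hoxc8 from 267 and 304 to 93 and 96 (log2 -1.57 ± 0.16). Hoxd13 fell from 75 and 53 to 24 and 38 (log2 -1.01 ± 0.33). Hoxb9 went from 218 and 226 to 158 and 137 (log2 -0.59 ± 0.21, adjusted p = 0.0273), under the threshold for the difference. In the fit with the doubted library 11 members were called.

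Over the same 6 days all 6 epithelial markers fell, from a sum of 9500 to 9502 to one of 61 to 68. Pluripotency markers fell in 6 of 7 cases, from 4198 to 4230 to 407 to 445, and neural stem cell markers rose in 3 of 10 and fell in 1, from 9592 to 9600 to 16898 to 17752. Their part in the Hox result was not tested. Of the regulators, the receptor gene Rarb rose from 241 to 1033 on average (log2 2.09 ± 0.31), while T, Cyp26a1 and Gbx2 fell. Meis1, a Hox cofactor, rose from 827.5 to 2175 on average (log2 1.39 ± 0.17) with Pbx4, and 1 of 16 Polycomb genes, Cbx7, fell.

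The day 30 culture and the established line made with the same factors are set side by side without a test. Hoxb3 was at 2635 and 2833 in BKM_FNV day 30 and at 10 and 7 in iNSC_BKMF, and Hoxb4, Hoxb5, Hoxb8 and Hoxd3, at 140 or more on day 30, were listed at 0 in the line. Hoxc6, at 64 and 43, was listed at 0 in the line as well. The day 30 culture still had a summed fibroblast marker value of 194552 to 201109, beside 615 to 806 in the line.

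The eSox17FNV cocktail was compared with those of Sox17 and Sox2 after Dox at days 24 and 30. Against BKM_Sox17, 7 members were higher and 9 lower in BKM_FNV (9.67% and 8.15% of all genes, 17.8% in all). None of groups 1 to 4 was lower and 5 of 11 were higher, and none of groups 9 to 13 was higher and 6 of 15 were lower. Hoxc6 was at 693 and 721 on day 24 and 720 on day 30 in BKM_Sox17, above 399 and 406 and 64 and 43 in BKM_FNV (log2 -2.27 ± 0.35, adjusted p = 4.87e-06). Hoxc13 (log2 -2.19 ± 0.43) and Hoxd8 (log2 -1.42 ± 0.23) were lower too, as was Hoxa13 (log2 -1.44 ± 0.45), and Hoxd1 (log2 1.67 ± 0.30), Hoxd3 and Hoxa4 (both 1.44, SE 0.33 and 0.24) higher. These differences average the 2 days. On day 24 Hoxd3 was lower in BKM_FNV (4 to 6 against 7 to 8), and on day 30 it was higher (140 and 140 against 12 in 1 library).

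Hoxb9 was lower by 1.10 ± 0.17 (218 and 226, 158 and 137 against 266 and 280, 554), but by 0.97 after rescaling and with an adjusted p of 0.702 with the doubted library. Hoxb3 was higher by 0.88 ± 0.31 (adjusted p = 0.0205), under the threshold for the difference, which it met after rescaling. On day 24 Hoxb3 was lower in BKM_FNV (499 to 525 against 536 to 608), and on day 30 it was higher (2635 to 2833 against 723). The doubted library in the fit left 8 members called. All 7 pluripotency markers and 8 of 10 neural stem cell markers were higher in BKM_FNV, and their part was not tested.

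Against BKM_Sox2, which has 1 library on each day here, 1 member was higher and 14 lower in BKM_FNV (8.72% and 6.42% of all genes, 15.1% in all). Rescaling changed the split over all genes from 1811 higher and 1333 lower to 2115 and 992 and moved their median from -0.09 to 0.04. Hoxd9 was at 302 on day 24 and 63 on day 30 in BKM_Sox2, against 6 and 4, then 13 and 7 (log2 -3.97 ± 0.36, adjusted p = 6.45e-10). Hoxb13, a tail-end gene at 9 or less in every other group, was at 52 and 32 against 2 and 2, then 4 and 4 (log2 -3.13 ± 0.33). It passed the filter on low values only through BKM_Sox2 libraries of these days, so its p-value here is not support for the difference. Its calls in other comparisons are between values of 9 or less.

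Hoxb9 was at 1185 and 714 in BKM_Sox2 (log2 -2.33 ± 0.18, adjusted p = 3.98e-11), but the difference was -0.03 with the doubted library, which lists it at 0. Hoxd8 was lower by 2.27 ± 0.25, and by 0.33 with that library. Hoxc13 (log2 -2.67 ± 0.47) and Hoxd13 (log2 -2.03 ± 0.29) were lower, and Hoxa9 was higher (log2 1.40 ± 0.37). Hoxb3 was at 601 and 937 in BKM_Sox2 and was not called (log2 0.66 ± 0.34, adjusted p = 0.124), though it was called with the doubted library, which has it at 2 (log2 2.46, adjusted p = 0.0237). Hoxa13 was at 9 and 13 in BKM_Sox2 and listed at 0 in all 4 BKM_FNV libraries. All 7 pluripotency markers, all 6 epithelial markers, 8 of 10 neural stem cell markers and 4 of 5 neuron markers were higher in BKM_FNV. Pou5f1, which marks pluripotent cells, averaged 1652 on day 24 and 25.5 on day 30 in BKM_FNV and was listed at 0 in BKM_Sox2. Their part in the Hox result was not tested.

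In the parallel experiment the question was whether the medium changed the course of cells with the same factors. On day 4 in N2B27 medium 11 of 34 members were lower and 0 higher than in MEFs (8.54% and 9.88% of all genes, 18.4% in all); the MEFs lack the Nanog-CreER and Rosa26-tdTomato alleles, so genotype and treatment cannot be told apart. Hoxb9 was at 339 and 274 against 824 and 838 (log2 -1.44 ± 0.24, adjusted p = 0.000234). Hoxa4 (log2 -2.26 ± 0.44) and Hoxd8 (log2 -2.22 ± 0.32) had the largest differences, followed by Hoxd3, Hoxc11 and Hoxb8 (log2 -2.01 ± 0.58, -1.99 ± 0.42 and -1.99 ± 0.42). Hoxc11 was not called with the compared groups alone (adjusted p = 0.105). Hoxb3 was at 41 and 60 against 150 and 213 (log2 -1.81 ± 0.55, adjusted p = 0.0163), a call lost without day 4 replicate 1 or MEF replicate 2 (adjusted p of 0.108 in both fits). Macrophage markers were lower in 4 of 6 cases, with a sum of 407 to 485 against 2958 to 3271, and fibroblast markers in 4 of 10. All 5 neuron markers and 3 of 5 endothelial markers were higher, and epithelial markers were higher in 4 of 6 cases and lower in 1. Their part in the Hox result was not tested. Between days 4 and 8 limma called 1 member, Hoxc9, which was lower (92 and 77, then 32 and 34, log2 -1.30 ± 0.31; 3.00% of all genes were higher and 1.71% lower, 4.71% in all), and it was called in none of the fits that leave out 1 of the 4 libraries. After rescaling, the split over all genes went from 614 higher and 350 lower to 773 and 218.

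On Dox, at days 12 and 16, 8 members were lower and 2 higher in LIF/2i medium than in NSC medium (7.45% and 8.07% of all genes, 15.5% in all). Of 8 Hoxb genes 5 were lower. Hoxb2 was at 30 and 21, then 16 and 17, in LIF/2i and at 57 and 42, then 142 and 123, in NSC medium (log2 -1.88 ± 0.29, adjusted p = 9.8e-05). Hoxb5 (log2 -1.78 ± 0.22) and Hoxb6 (log2 -1.71 ± 0.27) were lower as well, and Hoxc13 was higher (14 and 10, 22 and 12 against 8 and 2, 0 and 3, log2 1.83 ± 0.40). Hoxb3 and Hoxb9 were not called (log2 -0.57 ± 0.39 and -0.31 ± 0.17). In LIF/2i 6 of 7 pluripotency markers were higher, and fibroblast markers were lower in 4 of 10 cases and higher in 1. Their part was not tested.

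After Dox, at days 20 and 24, the media lay further apart, with 17 members lower and 1 higher in LIF/2i (12.3% and 12.2% of all genes, 24.5% in all). The median difference was -1.03 over the Hox genes and -0.10 over all genes. Of 8 Hoxb genes 7 were lower and of 10 Hoxa genes 7, against 1 of 8 Hoxc and 2 of 8 Hoxd genes. Hoxb3 was at 31 and 26, then 21 and 34, in LIF/2i, and at 157 and 214, then 728 and 389, in NSC medium (log2 -3.41 ± 0.39, adjusted p = 2e-06). Hoxb2 was at 21 and 26, then 8 and 13, against 80 and 67, then 368 and 138 (log2 -2.89 ± 0.29, adjusted p = 6.28e-07), and no library of LIF/2i reached one of NSC medium on the same day in either gene. Such lack of overlap, in either direction, held for 21 of 34 members and 56.7% of all genes.

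Hoxc13 went the other way, at 41 and 55, then 91 and 82, in LIF/2i and at 4 and 7, then 0 and 5, in NSC medium (log2 3.66 ± 0.40, adjusted p = 1.26e-06). Hoxb9 was at 262 and 239, then 120 and 189, against 281 and 195, then 117 and 125, and was not called (log2 0.20 ± 0.17, adjusted p = 0.326). Hoxa9 (log2 -2.26 ± 0.40), Hoxb8 (log2 -2.06 ± 0.29) and Hoxb5 (log2 -2.02 ± 0.22) were lower. The 6 of 7 pluripotency markers that were higher in LIF/2i included Nanog (12052.5 against 531.25 on average), and 4 of 10 fibroblast markers were lower. Their part was not tested. Of 9 Hox cofactors 6 were lower, among them Meis1 (log2 -1.77 ± 0.12) and Pknox2 (log2 -2.12 ± 0.12). Of 16 Polycomb genes 7 were higher and 1 lower, with Mtf2, an accessory subunit, higher by 3.48 ± 0.11. The posterior and retinoid regulators went both ways. Cdx1, which activates Hox genes in the posterior embryo, averaged 703.75 against 3, and Aldh1a3, which makes retinoic acid, 41.25 against 901.25. Cyp26b1, which degrades retinoic acid, was lower too (34.75 against 643.25), and Aldh1a2, which makes it, was not called (196.5 against 234.75).

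**Figure D4:**
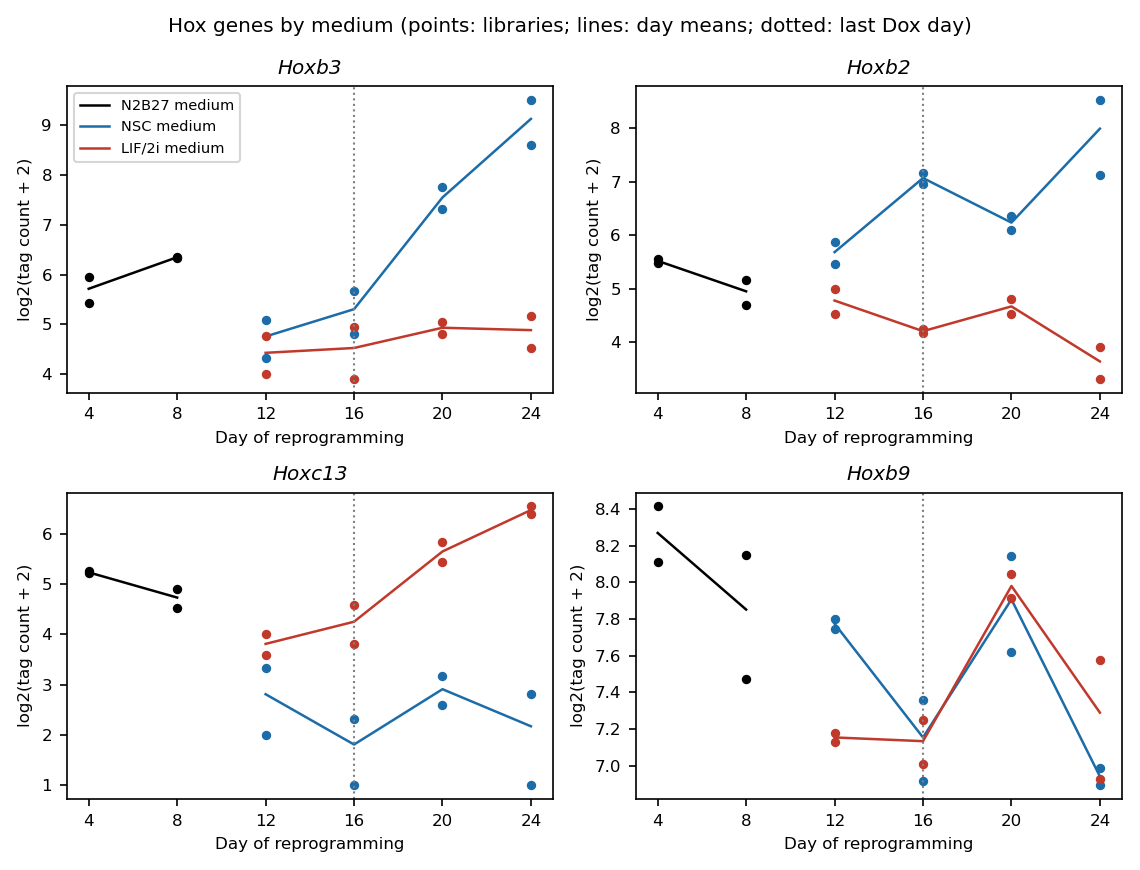
Log2 of the normalized tag count plus 2 (y axis) of 4 Hox genes by day (x axis) in N2B27 medium (black) and, from day 12, NSC medium (blue) or LIF/2i medium (red). Points are libraries, lines join day means and the dotted line marks the last day on Dox. Hoxb3 in NSC medium reaches 389 to 728 on day 24 while LIF/2i stays at 13 to 34, Hoxc13 reaches 82 to 91 in LIF/2i, and Hoxb9 overlaps between the media after Dox.

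Each medium was also compared with itself, after against on Dox, which shares these libraries. In NSC medium 4 members rose and 1 fell (11.2% and 9.33% of all genes, 20.5% in all). Hoxb3 rose from 18 to 49 in the 4 libraries on Dox to 157 to 728 in the 4 after it (log2 3.33 ± 0.39, adjusted p = 3.98e-06), with no overlap. That lack of overlap, in either direction, held for 6 of 34 members and 36.7% of all genes. Hoxd8 (log2 1.62 ± 0.22), Hoxd3 (log2 1.55 ± 0.41) and Hoxb4 (log2 1.31 ± 0.19) rose, and Hoxc9 fell (log2 -1.10 ± 0.22, but -0.99 after rescaling and without day 20 replicate 2). Hoxb9 was not called (log2 -0.04 ± 0.17, adjusted p = 0.861). Neuron markers rose in 4 of 5 cases and fell in 1, neural stem cell markers rose in 4 of 10, and fibroblast markers rose in 5 of 10 and fell in 2. Epithelial markers fell in 3 of 6 cases and endothelial markers in 3 of 5, and the part of these markers was not tested. In LIF/2i 2 members rose and 1 fell (6.40% and 5.16% of all genes, 11.6% in all): Hoxc13 (log2 2.05 ± 0.40) and Hoxd9 (log2 1.16 ± 0.33) rose and Hoxa9 fell (log2 -1.62 ± 0.40), while Hoxb3 (log2 0.48 ± 0.39) and Hoxb9 (log2 0.47 ± 0.17) were not called. Hoxd9 was not called with the compared groups alone (adjusted p = 0.0618) or without day 16 replicate 2 (log2 0.78). Pluripotency markers rose in 4 of 7 cases there, and their part was not tested.

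The difference between the media was itself compared after and on Dox, in 1 interaction term. Of 34 members 2 were higher and 5 lower (6.51% and 7.36% of all genes, 13.9% in all). For Hoxb3 the term was -2.84 ± 0.55 (adjusted p = 0.00105), so the gap between the media widened after Dox by more than the spread of the libraries. For Hoxb9 it was 0.52 ± 0.24 (adjusted p = 0.114). The NSC-medium gain in Hoxb3 was thus larger than the LIF/2i gain by this test. In NSC medium the regulators Aldh1a2 (log2 2.99 ± 0.39), Cyp26b1 (log2 2.55 ± 0.36) and Gbx2 (log2 2.12 ± 0.33) rose after Dox with 3 others of the 13, and 1 fell.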

How the data were processed

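RNA from mouse fibroblasts, neural stem cells, induced lines and reprogramming cultures was sequenced. The authors deposited normalized tag counts, recorded here as a score since they are neither raw counts nor a per-million unit; the submitters' processing notes name Bowtie2 2.0, RSEM and mm10, and the normalization is not given in the sources used here. MEF, NSC and iNSC_BKMF libraries are in both tables with different values, so each table is tested apart. Depth is unknown, so no interval or limit is given. Of the value columns, 4 matched no labelled sample and were not used, and the NSC columns matched their group only.

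All groups of a table entered 1 limma fit (3.58.1, R 4.3.3) on log2(value + 2) with an intensity trend and 1 mean per group, over 53 and 26 libraries and the 20760 and 20468 genes with values of at least 10 in at least 2 libraries. P-values are two-sided and Benjamini-Hochberg adjusted within each comparison over all genes tested. BKM_Sox2 day 24 replicate 1 (column median 32, sum 15873664) was left out. With values are named up to 6 called members of largest difference per comparison, Hoxb3 and Hoxb9, and up to 3 called genes of a list; further genes named beside them were chosen after their values were seen. Alternatives were a pseudocount of 8, no filter, rescaled columns, the compared groups alone, the left-out library, a replicate block and each library left out. On simulated data made from the real means (20760 genes, NSC against MEF), the fit recovered 73 of 100 genes changed by 1.5 and 79 of 100 changed by 3 on the log2 scale, with 5 false calls. Positions are from GENCODE M21 (GRCm38, the build of the files). The members and lists were chosen with earlier results of these data known. Some genes are counted but not reported here by name or drawn.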

Additional observations from a re-analysis of the deposited data

Results flagged for a closer look

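For 7 Hox genes the medium difference changed between the days on Dox and those after it, by the interaction test in limma. The differences of log2 differences (LIF/2i minus NSC medium, after minus on Dox) were -2.84 for Hoxb3, -1.20 for Hoxa10, -1.02 for Hoxc5, -1.0049 for Hoxd8 and -1.0046 for Hoxa3, and 1.82 for Hoxc13 and 1.42 for Hoxc9. Hoxc13 and Hoxc5 were not called with the compared groups alone (adjusted p = 0.0674 and 0.0661), and the calls of Hoxc13, Hoxc5 and Hoxd8 were each lost in several fits that leave out 1 library.

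In the left-out library, BKM_Sox2 day 24 replicate 1, 4 members had a value above that of every other library of the table: Hoxb13 at 3558, Hoxd9 at 1972, Hoxc6 at 1445 and Hoxd4 at 174. In the same library Hoxb9, Hoxc8 and Hoxd13 were listed at 0, and its replicate had 52 for Hoxb13, 302 for Hoxd9, 236 for Hoxc6 and 86 for Hoxd4. No group has the 4 libraries that a test for an outlying sample needs.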

How the results depend on the processing

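No alternative reversed a direction. Of 140 counts of called Hox genes under settings other than leaving out 1 library, 18 moved by over 1.5 times. With BKM_Sox2 day 24 replicate 1 in the fit the counts were 0 for iNSC_BKMF against NSC, 4 for day 4 against MEF, 5, 5, 4 and 1 for day 18 against day 4 in BKM_FNV, BKM_Sox17, BKM_Sox2 and K_FNV, 8 for BKM_FNV against BKM_Sox17 after Dox, and 11 for BKM_FNV day 30 against day 24. With the compared groups alone they were 0 for iNSC_BKMF against NSC, 11 for iNSC_KF against NSC, 11 for iNSC_KF against iNSC_BKMF, 2 for BKM_Sox2 day 18 against day 4 and 0 for N2B27 day 8 against day 4. With a pseudocount of 8 they were 1 for iNSC_BKMF against NSC, 5 for K_FNV day 18 against day 4, 2 for N2B27 day 8 against day 4, 6 for LIF/2i against NSC medium on Dox and 3 for NSC medium after against on Dox. The cause was not tested. No filter and rescaled columns moved no count past that limit.

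Leaving out 1 library gave counts of 1 to 1 for iNSC_BKMF against NSC, 0 to 1 for BKM_FNV against BKM_Sox17 on Dox, 3 to 6 for K_FNV day 18 against day 4, 4 to 8 for NSC medium after against on Dox, 4 to 11 for the interaction and 0 to 0 for N2B27 day 8 against day 4. The K_FNV count was 6 without day 18 replicate 2 and 5 without day 18 replicate 1, and the NSC-medium count 8 without day 24 replicate 2. The interaction count was 11 without NSC-medium day 24 replicate 2 or LIF/2i day 16 replicate 1, and 4 without LIF/2i day 16 replicate 2. The count of 1 on Dox was seen without BKM_FNV day 4 replicate 1, day 8 replicate 1 or day 18 replicate 2, or BKM_Sox17 day 4 replicate 2. For the genes given with values, 59 of 887 fits with another setting and 46 of 1038 fits without 1 library lost a call.

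With the replicate number as a block no count moved past the limit. Same-numbered libraries correlated at -0.0756 to 0.0918 over 276 pairs of groups and -0.0498 to 0.0876 over 66, so they share only a number. No paired analysis was possible for comparisons with NSC because its columns carry no replicate number. Leaving out the lone library of BKM_Sox17 day 30, BKM_Sox2 day 24 or BKM_Sox2 day 30 was not run, since no group mean is left.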

Other observations

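Across the 28 groups of the NSC-medium table, the Hox genes closest to Hoxb3 in log2 group means were its neighbours Hoxb2 (Pearson r = 0.954) and Hoxb4 (0.941), then Hoxc4 (0.863). Closest to Hoxb9 were Hoxb7 (0.969), Hoxb6 (0.951) and Hoxc6 (0.934). This is a description, made after the values were seen, over groups of 1 normalized table, most of them cultures started from the same kind of fibroblast.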
